A study of Mus musculus with 9 samples.

Results

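Of 58451 merged regions that carried a peak in any of 6 deposited lists of E2A or HEB peaks, 607 (1.04%) carried a peak in every list, and these 607 six-list regions are described here. The members were chosen by which peaks the authors called, that is by the same scores that are described below. All peaks on chromosomes 1 to 19, X and Y that overlapped by at least 1 bp were joined, and joined regions with a peak of each list were kept. Their presence in the 6 lists is therefore the rule and not a result. E2A (gene Tcf3) and HEB (gene Tcf12) belong to the E proteins, helix-loop-helix factors that pair up and contact DNA at E-boxes, short motifs with the letters CANNTG. In thymocyte precursors they act at T cell receptor loci, CD3 genes and Notch target genes, they restrain cell division, and Id proteins block their binding.

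Binding was measured by chromatin immunoprecipitation and sequencing in BALB/c mouse cells that all lacked Rag2, so that none could rearrange a T cell receptor gene of their own. The DN3 group was CD4- CD8- CD25+ CD44- precursors that had been grown from fetal liver progenitors, harvested at day 7 and taken without a receptor. For the other groups, DN3 cells were kept overnight on packaging cells that made the MIY-KN6 vector, with IL7, Flt3L and polybrene, which brought in the KN6 gamma-delta receptor with a YFP marker. YFP+ cells were then kept for 3 days on stromal OP9-DL1 cells, which display a Notch ligand. They were fixed for 10 min in 1% formaldehyde and sorted as Thy1+ CD4- CD8- CD24+ cells into CD73- cells, which per the labels keep the alpha-beta fate open, and CD73+ cells, which per the labels are committed to the gamma-delta fate. The receptor came from a vector, the progenitors were fetal, and fixation of the DN3 group is not described in the labels. Each of these 3 stages had 1 library of E2A, of HEB and of input, with duplicates joined by the authors before peaks were called. Replicate error and read depth are therefore unknown for all values given here, and no test between conditions was possible. Peak lists hold no expression values, so the sorted phenotypes could not be checked against marker transcripts.

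The deposited score of a peak is -10 log10 of its MACS p-value against the input of the stage, with a lowest value of 50 and ties at 3100. It is the authors' value and ranks peaks within a list only. For each region the highest peak of a list is given, in the order DN3 E2A, DN3 HEB, CD73- E2A, CD73- HEB, CD73+ E2A, CD73+ HEB, and a percentile is the place of that peak in its own list, with 100 the highest. The lists differ in length and those of a stage share an input, so a lower score or rank in another list does not show less binding. Whether the names of the CD73+ E2A and CD73+ HEB lists are right is not settled by the files, and they are used here as labelled. Exchanging them would leave the 607 members as they are, but would exchange every value given for these lists, among them the contrasts between E2A and HEB, the correlations, the ratio of CD73+ E2A to DN3 E2A scores and the list most often missing. Without the list labelled CD73+ E2A, 957 regions held a peak of each of the other 5 lists. A gene name attached to a region is the nearest protein-coding gene or T cell receptor constant gene and does not state a target.

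The promoters that lay inside six-list regions show the DNA of the smaller group of regions at gene starts. RefSeq promoter windows, from 250 bases before to 50 after a start, were available for 17492 protein-coding genes on build GRCm38.p6, which has the coordinates of mm10. In all, 37 windows of 31 genes overlapped a six-list region, 34 of them wholly. The following are the 250 bases before the start for a chosen part of these windows, and capitals mark CANNTG. They are not a representative sample. Of those printed only Ddit4 lacks the letters, but several windows not printed lack them too. Among these is Rasgrp2, at the region with the highest mean percentile (98.8) of those that overlapped a window.
Arpp21 (chr9:112217352-112217601, minus strand): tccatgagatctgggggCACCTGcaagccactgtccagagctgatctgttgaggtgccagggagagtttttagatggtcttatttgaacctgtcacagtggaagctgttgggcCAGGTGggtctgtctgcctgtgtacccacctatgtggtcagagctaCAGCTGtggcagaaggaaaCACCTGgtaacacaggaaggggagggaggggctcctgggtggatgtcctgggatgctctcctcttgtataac
Cd3g (chr9:44980432-44980681, minus strand): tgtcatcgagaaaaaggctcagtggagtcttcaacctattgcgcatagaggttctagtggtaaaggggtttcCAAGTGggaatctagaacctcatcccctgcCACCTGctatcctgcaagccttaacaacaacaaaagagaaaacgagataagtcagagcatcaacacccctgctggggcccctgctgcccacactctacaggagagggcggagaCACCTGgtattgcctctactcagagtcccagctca
Sla2 (chr2:156887222-156887471, minus strand): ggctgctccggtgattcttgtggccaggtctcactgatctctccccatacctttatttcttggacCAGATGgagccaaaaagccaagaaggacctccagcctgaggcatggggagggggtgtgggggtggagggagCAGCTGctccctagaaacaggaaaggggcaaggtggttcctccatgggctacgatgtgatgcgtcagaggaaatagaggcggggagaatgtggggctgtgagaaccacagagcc
Prkcb (chr7:122288875-122289124, plus strand): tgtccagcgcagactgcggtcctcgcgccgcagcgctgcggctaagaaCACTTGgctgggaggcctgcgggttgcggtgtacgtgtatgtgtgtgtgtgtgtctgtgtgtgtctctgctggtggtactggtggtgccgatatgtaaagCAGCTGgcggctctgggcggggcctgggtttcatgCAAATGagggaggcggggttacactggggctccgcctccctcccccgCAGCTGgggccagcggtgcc
Cd2ap (chr17:42876425-42876674, minus strand): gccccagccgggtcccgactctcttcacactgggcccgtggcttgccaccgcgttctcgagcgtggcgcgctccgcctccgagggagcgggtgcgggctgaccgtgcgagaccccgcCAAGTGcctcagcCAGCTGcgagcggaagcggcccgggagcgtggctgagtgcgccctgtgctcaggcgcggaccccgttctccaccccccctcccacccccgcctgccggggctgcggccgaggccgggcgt
Dpcd (chr19:45560335-45560584, plus strand): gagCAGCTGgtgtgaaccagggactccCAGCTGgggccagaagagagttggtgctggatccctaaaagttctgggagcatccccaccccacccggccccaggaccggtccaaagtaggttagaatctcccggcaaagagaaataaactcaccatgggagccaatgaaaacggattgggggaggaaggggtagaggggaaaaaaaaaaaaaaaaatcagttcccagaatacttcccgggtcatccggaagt
Galk1 (chr11:116012720-116012969, minus strand): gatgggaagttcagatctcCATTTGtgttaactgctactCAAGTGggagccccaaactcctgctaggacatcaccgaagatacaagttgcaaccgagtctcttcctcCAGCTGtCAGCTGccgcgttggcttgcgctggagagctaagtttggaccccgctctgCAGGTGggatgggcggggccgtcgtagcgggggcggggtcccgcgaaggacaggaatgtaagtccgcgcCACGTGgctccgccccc
Ddit4 (chr10:59951771-59952020, minus strand): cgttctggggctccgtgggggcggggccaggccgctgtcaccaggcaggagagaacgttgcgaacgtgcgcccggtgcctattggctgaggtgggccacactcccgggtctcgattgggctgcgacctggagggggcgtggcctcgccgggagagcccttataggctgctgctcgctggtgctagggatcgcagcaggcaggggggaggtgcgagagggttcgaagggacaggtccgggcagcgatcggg
Gm13276 (chr4:88784804-88785053, plus strand): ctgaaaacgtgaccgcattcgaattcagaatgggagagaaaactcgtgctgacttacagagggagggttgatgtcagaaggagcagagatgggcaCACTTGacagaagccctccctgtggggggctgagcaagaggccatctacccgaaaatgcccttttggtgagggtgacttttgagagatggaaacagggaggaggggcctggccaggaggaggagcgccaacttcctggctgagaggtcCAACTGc
Gm13278 (chr4:88790645-88790894, plus strand): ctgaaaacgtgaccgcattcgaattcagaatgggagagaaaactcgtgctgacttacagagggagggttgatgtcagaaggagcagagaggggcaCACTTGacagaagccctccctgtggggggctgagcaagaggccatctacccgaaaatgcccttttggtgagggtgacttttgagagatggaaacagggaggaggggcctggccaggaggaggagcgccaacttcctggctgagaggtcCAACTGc

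Arpp21, a gene of immature thymocytes whose product binds RNA, had 4 E-boxes in its 250 bases, of which 3 had the CACCTG letters on one strand or the other and 1 was CAGCTG. Its region, at chr9:112216697-112218434, scored 2029, 856.4, 303.2, 395.9, 107.7 and 1031. Cd3g, which encodes a CD3 chain of the T cell receptor complex, had CAAGTG and 2 copies of CACCTG, in a region with scores of 156.4, 197.4, 96.2, 55.5, 54.5 and 347.6. The Arpp21 region thus stood high in every list, while the Cd3g region was near the minimum in 2 of them. Sla2, an adaptor that dampens receptor signals, carried CAGATG and also CAGCTG and scored 1264, 607.5, 378.2, 386.3, 57.3 and 916.3. Prkcb, a protein kinase C gene, carried 2 copies of CAGCTG among 4 E-boxes and scored 737.1, 1278, 144.6, 268.5, 62.9 and 258.3. The median score of the whole CD73+ E2A list was 61.5, so that in this list Sla2 was below the median and Prkcb just above it.

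Dpcd, whose product is linked to cilia, carried 2 copies of CAGCTG and scored 2902, 1234, 430.0, 372.6, 126.8 and 458.4. Cd2ap, an adaptor at the cell membrane, carried CAAGTG and CAGCTG and scored 1090, 1123, 236.4, 432.5, 137.5 and 611.0. Galk1, the galactokinase gene, held 6 E-boxes in the 250 bases and scored 619.8, 458.8, 147.2, 267.5, 86.0 and 269.2. Ddit4, a stress gene that restrains mTOR, held none, though its region scored 1877, 871.8, 327.9, 214.7, 181.3 and 757.3. That region is 2517 bp wide and the printed bases are a part of it.

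The letters CAGCTG, counted over the whole 300 bases, were present in 14 of the 37 windows, 37.8% (95% Wilson interval 24.1% to 53.9%). Among all 21263 protein-coding windows they were present in 15.6%, among windows that overlapped any merged region in 26.1%, and among those in regions of both DN3 lists alone in 25.9%. CACCTG on either strand, read as CACCTG or CAGGTG, was present in 37.8% of the six-list windows, against 19.7%, 33.0% and 38.8% in the same 3 sets. CANNTG, which reads the same on both strands and includes the other motifs, was present in 78.4%, against 69.0%, 77.4% and 81.2%. The interval for the six-list windows contains the values of windows under any merged region for all 3 motifs. Windows of 1 gene overlap each other and several of the 37 are near-identical copies, and the intervals cover counting error only. Median GC content was 61.0% in the six-list windows and 56.3% in all windows. No genome sequence was used, so motifs elsewhere in the 607 regions were not searched, and none of the 607 overlapped a miRNA hairpin of the RefSeq table.

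Six-list regions filled the top of each list. Of the 100 highest peaks, the share in a six-list region was 81.0% in DN3 E2A, 81.0% in DN3 HEB, 88.0% in CD73- E2A, 86.0% in CD73- HEB, 84.0% in CD73+ E2A and 96.0% in CD73+ HEB. Of the 1000 highest peaks, it ranged from 31.9% in DN3 E2A to 51.7% in CD73- HEB. Over whole lists it was 5.19%, 5.31%, 6.19%, 8.79%, 3.25% and 7.49%. A high peak of 1 list thus had a peak at the same place in all the others far more often than a peak taken at any rank. Height is part of what the rule used, so these shares are a description.

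**Figure D1:**
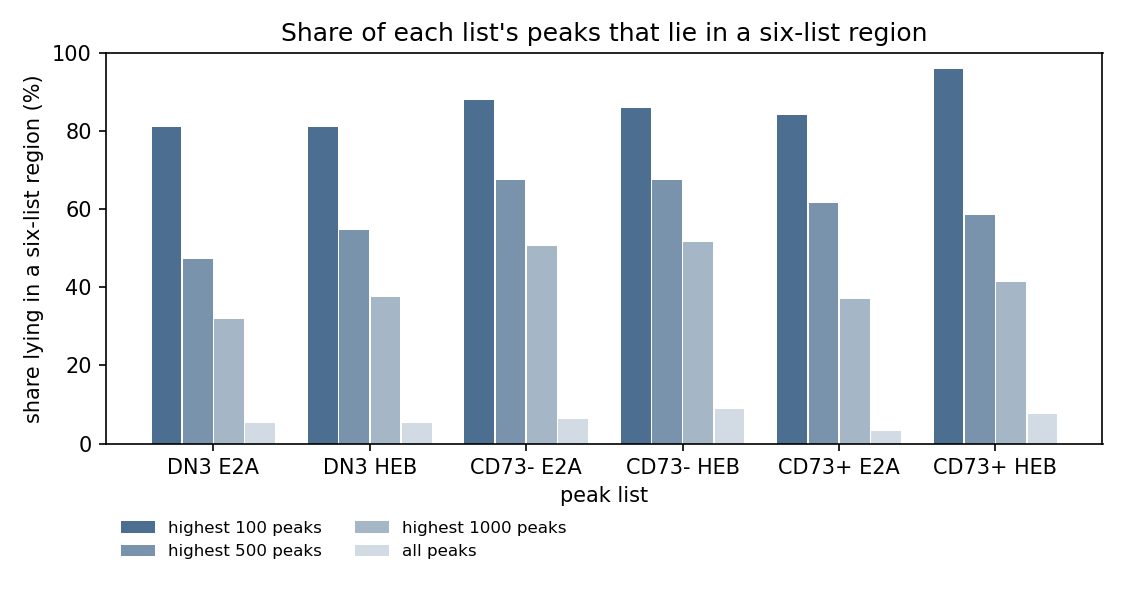
Share of the peaks of each list (y axis, percent) that lie in a six-list region, for the 100, 500 and 1000 highest peaks and for the whole list, with 1 group of bars per peak list. Between 81.0% and 96.0% of the 100 highest peaks lay in six-list regions, against 3.25% to 8.79% of whole lists.

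The regions were not high in every list. The median percentile was 93.0, 94.7, 96.3, 95.2, 97.8 and 94.5 in the 6 lists, and the median score was 459.8, 372.3, 184.2, 225.1, 148.3 and 337.8. A score of at least 100 was reached in all 6 lists by 302 regions (49.8%), and 190 (31.3%) were in the top 10% of every list. At the other end, 114 regions (18.8%) owed their membership to a peak scoring under 60, and 53 (8.73%) to one under 55. By percentile, CD73+ E2A was the highest list in 251 regions (41.4%) and the lowest in 165 (27.2%), and DN3 E2A was the highest in 81 (13.3%) and the lowest in 227 (37.4%). The lists differ in length, so these ranks show no difference in binding. Just outside the rule, 594 regions held peaks of exactly 5 lists, and the missing list was CD73+ E2A in 350 of them (58.9%), DN3 E2A in 85, CD73- E2A in 65, DN3 HEB in 41, CD73- HEB in 28 and CD73+ HEB in 25. Just inside it, the region with the lowest mean percentile (33.7), 15463 bp from the lysozyme-like gene Lyzl1, scored 50.3, 57.9, 55.4, 55.8, 59.0 and 92.6.

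**Figure D2:**
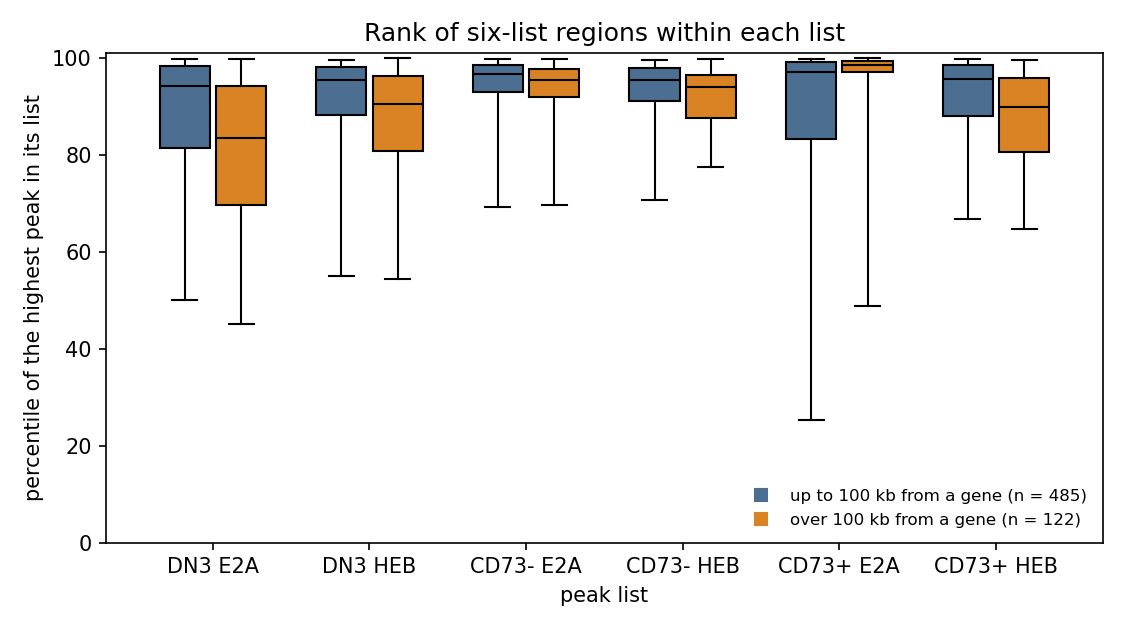
Percentile of the highest peak of each six-list region within its own list (y axis, 100 is the highest peak), as boxes for regions up to 100 kb from a gene (485) and over 100 kb away (122) in each of the 6 lists. The median of the far regions was lower than that of the near ones in DN3 E2A (83.5 against 94.1) and higher in CD73+ E2A (98.6 against 97.1).

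In shape, the regions were 293 to 38779 bp wide with a median of 1169 bp. In 578 of the 607 (95.2%) at least 1 base lay under a peak of all 6 lists, and 427 (70.3%) were built from exactly 6 peaks. The midpoints of the 6 highest peaks spread over a median of 170.5 bp. Much of the width came from the DN3 peaks, which covered a median of 919 bp (E2A) and 1101 bp (HEB) of a region, against 212 bp for CD73+ E2A peaks. In whole lists peaks were 617 bp and 721 bp wide in DN3 and 149 to 181 bp wide in the other 4.

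By gene position, 254 six-list regions (41.8%, 95% Wilson interval 38.0% to 45.8%) lay in or touched the span of a gene. A gene end was within 1 kb of 65 (10.7%), and 122 (20.1%, 17.1% to 23.5%) lay over 100 kb from any gene. The share over 100 kb away was 30.4% for regions of 1 list, 21.4% for 2, 16.0% for 3, 12.9% for 4 and 13.1% (10.7% to 16.1%) for 5. It was 8.82% (7.72% to 10.1%) for the 2257 regions with both DN3 lists and no CD73 list. The share far from genes thus fell from 1 list to 4 and was higher again among six-list regions, with intervals that do not meet those of the 5-list or DN3-only regions. At a reciprocal overlap of 50% the six-list share was 16.5% (12.0% to 22.3%). The 5-list share was not recomputed under that rule. Where the CD73+ E2A list was left out, the share was 15.8% (13.6% to 18.2%). That set includes the 350 5-list regions that lack only CD73+ E2A, so it is not separate from the 5-list regions. Both intervals meet that of the 5-list regions, but neither setting can decide whether the separation holds. The share inside gene spans was likewise lower at 6 lists, with 52.3% at 4 lists, 51.0% at 5 and 41.8% at 6. The intervals treat regions as independent and are not a replicate error.

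**Figure D3:**
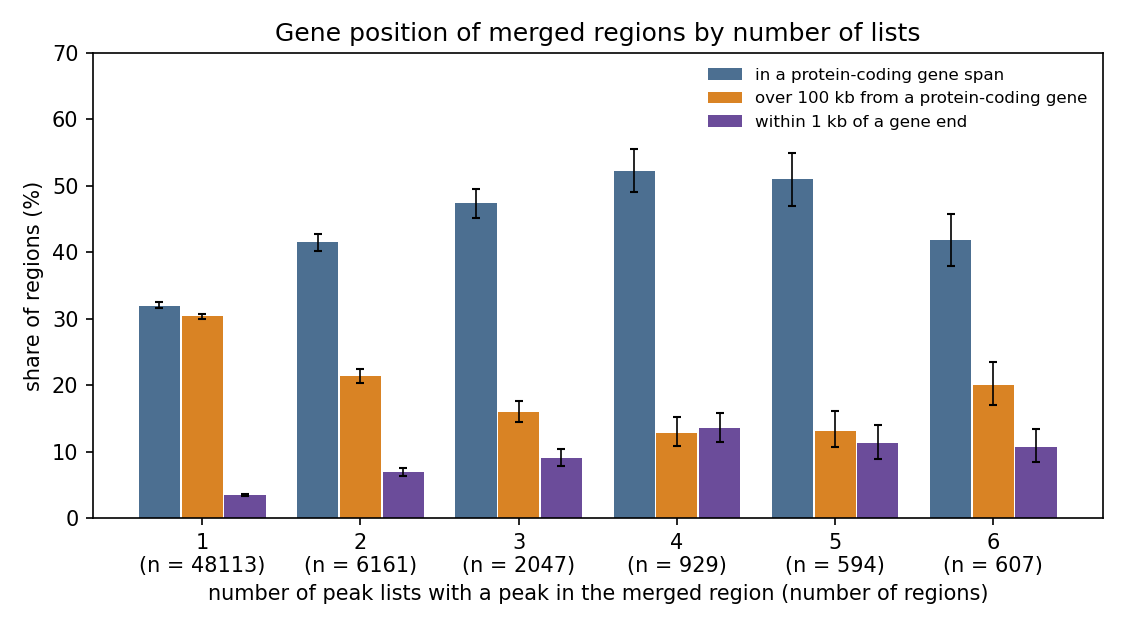
Share of merged regions (y axis, percent, with 95% Wilson intervals) in a gene span, within 1 kb of a gene end and over 100 kb from a gene, by the number of lists with a peak (x axis). The share over 100 kb fell to 12.9% at 4 lists and stood at 20.1% at 6.

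The list labelled CD73+ E2A stood apart when the scores of lists from different stages were set against each other. Lists of the same stage, CD73+ E2A and CD73+ HEB among them, were not correlated with each other. Across the 607 regions the Spearman correlation of the DN3 E2A score was 0.81 with the CD73+ HEB score, 0.65 with CD73- HEB, 0.60 with CD73- E2A and 0.06 with CD73+ E2A. The CD73+ E2A score was less apart from other lists, at 0.27 with DN3 HEB, 0.44 with CD73- E2A and 0.39 with CD73- HEB. Among the 122 regions over 100 kb from a gene, these values were 0.50, 0.62 and 0.55, and that with DN3 E2A was 0.26. These are descriptions over regions that share libraries. The log2 ratio of the CD73+ E2A score to the DN3 E2A score, counted in steps of 0.5, was most often between 0 and 0.5 (84 regions), with a second high count between -3.5 and -3 (63 regions). It was between -2.5 and -2 in 32 regions, and each of the 4 steps from -2 to 0 held 39 to 41, so that the ratio has no clear gap. The limit of 0.5 used next (log2 of -1) lies among those 4 steps and was chosen after the values were seen. The ratio serves only to order regions. Within the regions below the limit the CD73+ E2A score still rose with the DN3 E2A score (Spearman 0.48), and at or above it more closely (0.76), and a split on the ratio itself raises both values.

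**Figure D4:**
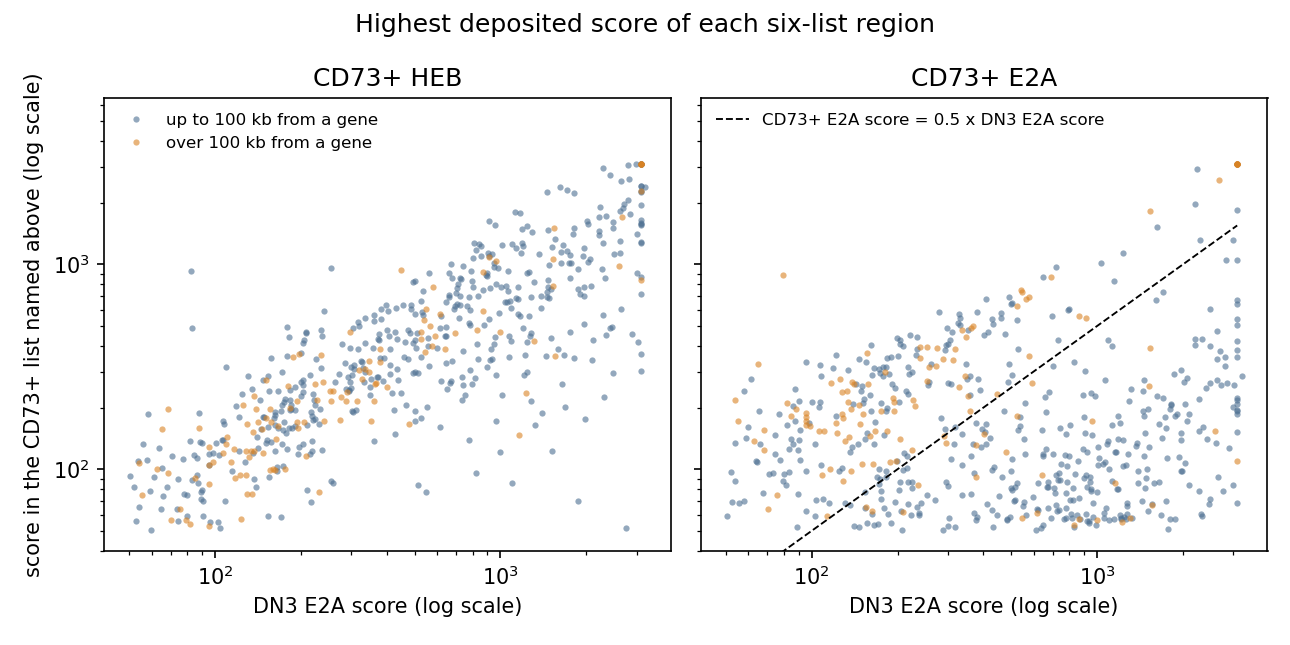
Highest CD73+ HEB score (left) or CD73+ E2A score (right) of each six-list region (y axis, log scale) against its DN3 E2A score (x axis, log scale), blue for regions up to 100 kb from a gene and orange for those farther away. The dashed line marks a ratio of 0.5, with 334 regions below it and 273 at or above it.

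The 334 regions below a ratio of 0.5 were wide, with a median of 1517 bp, and had median scores of 923.4, 518.8, 214.0, 278.6, 97.7 and 553.4. The 273 at or above it had a median width of 741 bp and median scores of 175.7, 236.7, 156.6, 180.6, 239.8 and 187.0. Position, which the ratio did not use, differed as well. Regions below the limit lay in a gene span in 49.7% and within 1 kb of a gene end in 15.9% (12.3% to 20.2%), and those at or above it in 32.2% and 4.40% (2.53% to 7.52%). Over 100 kb from a gene were 8.08% (5.61% to 11.5%) of the former and 34.8% (29.4% to 40.6%) of the latter. With a limit of 0.25 these shares were 5.91% and 30.3%, and with a limit of 1 they were 13.2% and 35.1%. Of 22 regions at genes of the lists described next, 21 were below 0.5 and 1 was not. What sets the regions on either side of the limit apart was not tested.

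Among protein-coding genes and T cell receptor constant genes, 419 of 21894 (1.91%) had a six-list region in the span or within 10 kb, while 54.5% had a peak of any list there. Gene lists chosen with earlier results of these data known held 292 genes, of which 21 (7.19%, 4.75% to 10.7%) had one. These genes were listed for T cell biology and many carry peaks of some kind, so the difference from 1.91% is a description. By list the counts were 5 of 18 for pre-TCR, recombination and coreceptor genes, 3 of 22 for cell cycle and antiproliferative genes, and 2 each of 25 T lineage factors, 16 Notch pathway genes, 19 gamma-delta programme genes, 16 chemokine receptor and homing genes and 14 survival genes. It was 1 of 24 cytokine receptor and JAK-STAT genes and 1 of 7 T cell receptor constant genes. None was counted among 10 E protein and Id genes, 20 proximal TCR signalling genes, 22 genes of the TCR signal response and 14 Foxo, Klf and quiescence genes. Among markers of other cells, 1 of 12 myeloid genes, Itgam, had a region, and none of the 12 B lineage, 11 erythroid, 12 stromal, 10 liver or 12 housekeeping genes.

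Genes of the receptor complex and its assembly had regions of very unequal height. Trac, the constant region of the alpha chain, had a region 2374 bp away at chr14:54226572-54228442 with scores of 2804, 1311, 576.6, 1074, 319.9 and 3063. Cd247, the CD3 zeta chain, scored 83.2, 495.9, 101.6, 281.9, 124.9 and 486.7, and was the region of these lists at a ratio above 0.5. Cd27, a costimulatory receptor, had a region 9539 bp away that scored 934.7, 560.1, 154.7, 365.4, 56.1 and 1128. The Trac region was thus above 300 in every list, while the Cd27 and Cd247 regions each had a score under 100 in at least 1 list. A second Arpp21 region, at chr9:112207395-112208443, scored 336.3, 136.7, 180.6, 102.7, 105.3 and 411.5. The region in Cd3g is also 809 bp from Cd3d, which encodes another CD3 chain, so that 1 region counts for both. Another pair of regions lay within the alpha chain locus at variable segments, over 100 kb from a constant gene because segments were not counted as genes. The one at Trav15-1-dv6-1, at chr14:53558863-53561368, scored 2600, 1010, 288.6, 284.7, 153.9 and 986.8. The one at Trav4-3, at chr14:53598890-53600090, scored 378.2, 246.7, 99.2, 135.1, 131.5 and 387.3.

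Cell cycle genes held some of the highest six-list regions. Ccnd3, the D cyclin of dividing pre-T cells, had a region at chr17:47541092-47543430 with scores of 2499, 3002, 1486, 2466, 603.6 and 1124. A second one in its span, at chr17:47530856-47532481, scored 1472, 978.9, 478.6, 250.4, 150.9 and 1472. Btg2, an antiproliferative gene, scored 3100, 2126, 590.5, 858.5, 503.6 and 1550 in a region 6630 bp away. E2f2, a transcription factor of S phase entry, scored 2416, 1707, 431.6, 965.8, 248.2 and 2721. All 4 regions were above 150 in every list. The E2f2 region is also the nearest to Id3, an Id inhibitor that T cell receptor signals induce, at 30767 bp.

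In the Notch pathway, Notch3, a receptor of early thymocytes, scored 2272, 1591, 504.7, 724.6, 78.2 and 952.0 at chr17:32163574-32165221. Maml3, a Notch coactivator, scored 2425, 1350, 957.4, 385.6, 140.7 and 486.7. By percentile the lowest list was CD73+ E2A for Notch3 (83.1) and CD73+ HEB for Maml3 (97.0). Among T lineage factors, Ikzf3, the Ikaros family member Aiolos, scored 1710, 1111, 396.1, 729.5, 221.8 and 1161 in a region 4276 bp away. Ets1, a factor of early T cells, scored 611.8, 277.9, 130.8, 201.2, 50.6 and 160.2. Ets1 was thus a member by a peak close to the minimum. Of the gamma-delta programme, Sox4, which acts in early T and gamma-delta cells, scored 1467, 926.3, 475.1, 441.6, 272.6 and 836.5 in a region 4044 bp away. Cd163l1, a scavenger receptor gene of gamma-delta cells, scored 921.8, 454.0, 196.5, 333.5, 121.6 and 771.6.

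Of homing genes, Selplg, the P-selectin ligand, scored 2286, 1577, 811.0, 1116, 220.9 and 1269. Cxcr5, the receptor for CXCL13, scored 811.5, 198.8, 56.3, 118.1, 60.3 and 280.0. The survival genes Bbc3 and Bcl2l11, which encode the proapoptotic proteins Puma and Bim, scored 61.4 and 57.0 in CD73+ E2A. In the other 5 lists Bbc3 scored 143.9 to 1062 and Bcl2l11 345.7 to 874.1. Il6ra, an interleukin 6 receptor chain, scored 1126, 988.2, 657.3, 606.5, 397.5 and 1806. Itgam, the myeloid integrin CD11b, scored 1184, 784.2, 365.7, 135.1, 141.2 and 1134 in a region 3122 bp away. The 22 distinct regions of listed genes had a median width of 1693 bp, against 1244 bp for 463 others up to 100 kb from a gene. Their median DN3 E2A percentile was 98.4 against 93.7, and their median CD73+ E2A percentile was 96.6 against 97.1.

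**Figure D5:**
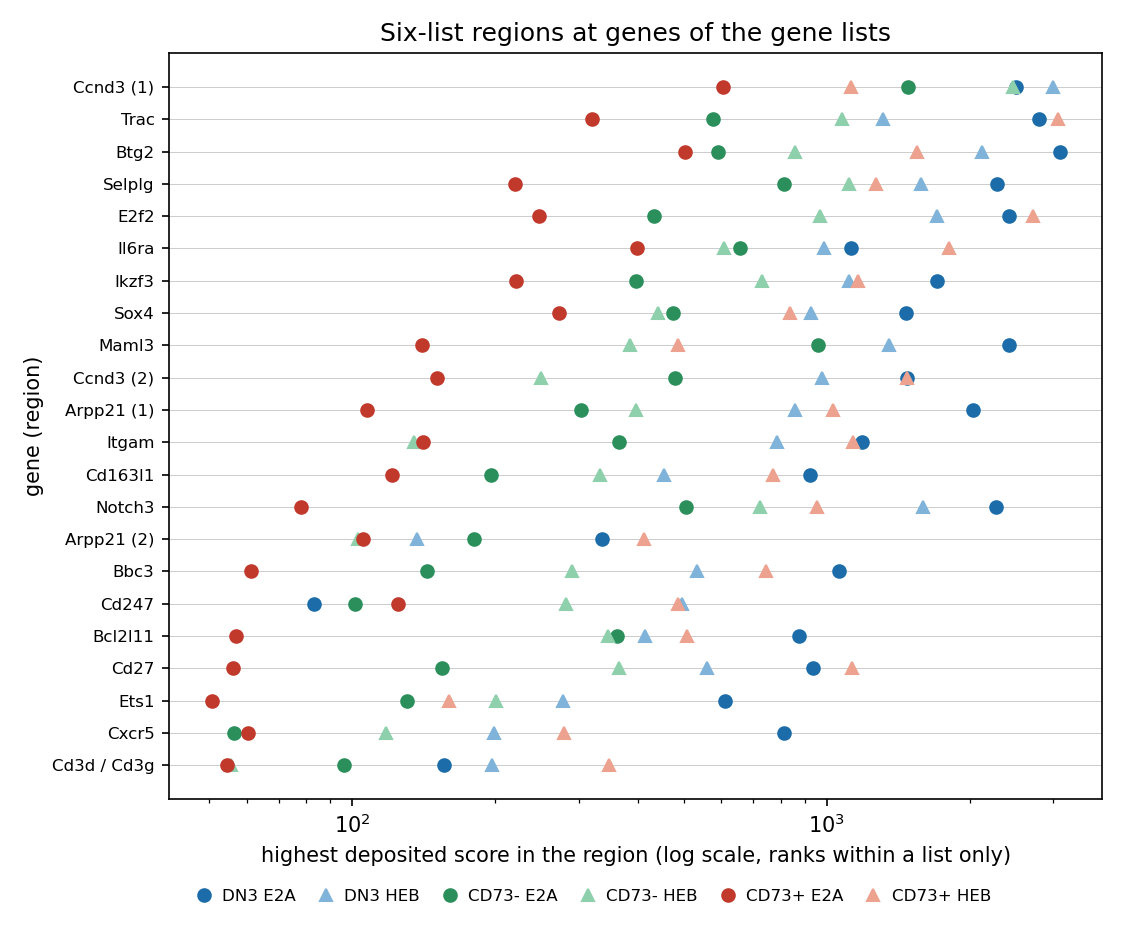
Highest score in each of the 6 lists (x axis, log scale, circles for E2A and triangles for HEB) for the 22 six-list regions at genes of the gene lists (y axis, 1 row per region, highest mean percentile on top). CD73+ E2A points lie farthest left in most rows, but not for Cd247, Cxcr5, Itgam and the second Arpp21 region. They range from 50.6 to 603.6, and CD73+ HEB points from 160.2 to 3063.

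Several regulators of this stage had no six-list region within 10 kb although they had peaks of some lists. Of all genes only 1.91% had such a region and 54.5% had a peak of any list, so this state is not particular to these regulators. Notch1 scored 1714 in DN3 E2A, 1056 in DN3 HEB, 346.6 in CD73- E2A, 200.9 in CD73- HEB and 259.9 in CD73+ HEB and had no CD73+ E2A peak. Rag1, which cuts receptor genes, scored 551.5, 127.3, 70.6 and 169.5 in DN3 E2A, DN3 HEB, CD73- HEB and CD73+ HEB. Bcl11b, a commitment factor, scored 243.3, 161.4, 108.9 and 200.6 in the same 4 lists. None of these 3 genes had a CD73+ E2A peak within 10 kb, and Rag1 and Bcl11b had no CD73- E2A peak there either. At Bcl11b no joined region held more than 3 lists. Tcf12, which encodes HEB, had peaks of all 6 lists within 10 kb, from 56.6 to 241.9, at no single joined region. Ptcra, the pre-TCR alpha chain, had a peak of 111.7 in DN3 E2A and of 73.7 in DN3 HEB and none in the CD73 lists. Nt5e, which encodes CD73, scored 66.4 in DN3 HEB and 89.6 in CD73+ HEB. Id2, an inhibitor of E proteins, was 92620 bp from a region at chr12:25188712-25191725 with scores of 3100, 1552, 669.1, 739.2, 186.0 and 1267. Tcf7, the T lineage factor TCF-1, was 30192 bp from one at chr11:52313575-52315051 with scores of 1170, 665.7, 190.9, 285.8, 121.8 and 1785. Id3 was 30767 bp from the E2f2 region given above. For the other regulators named in this paragraph the nearest region was over 200 kb away, and for Gata3 it was at 261149 bp.

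The regions with the highest mean percentile within 100 kb of a gene were mostly not at the genes of the lists. Of those named here, the regions near Rpusd4, Ly6c2, B4galt1 and Dyrk1a and in Ndufaf6 scored 3100 or more in a CD73 list, which is 1 of the 2 marks of likely high background used below. Ly6c2, a Ly6 surface antigen gene, was 20621 bp from a region at chr15:75085338-75087540 with scores of 2990, 3100, 3156, 3100, 1315 and 3100. Ndufaf6, an assembly factor of respiratory complex I, held a region with scores of 3100, 2876, 2101, 3100, 351.5 and 3100. B4galt1, a galactosyltransferase gene, was 20633 bp from one with scores of 2824, 3213, 1473, 3100, 1053 and 2622. The 3 regions were 2203 to 2945 bp wide. Dyrk1a, a protein kinase gene, scored 3100, 1832, 1713, 1785, 1051 and 3100 at 2289 bp. Pag1, an adaptor that recruits the inhibitory kinase Csk, was 52565 bp from a region with scores of 3100, 1515, 1016, 822.8, 641.2 and 2289. Trim8, a ubiquitin ligase gene, scored 3100, 3100, 1121, 1549, 667.2 and 1944 at 359 bp. Ppp6r3, a phosphatase subunit, Slc9a9, a sodium-proton exchanger, and Zswim6 were of like height, with a mean percentile of 99.7 to 99.8. A pair of regions in this set stood apart in width and in their CD73+ E2A scores. The one 29075 bp from Rpusd4, 737 bp wide, scored 3100, 3100, 2545, 2740, 3100 and 3100, and the one 79619 bp from Asmt, 1011 bp wide, scored 2235, 3181, 1538, 1734, 2932 and 1910.

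Some members were high in a few lists and near the minimum in others. Btbd16 held the region with the widest gap in favour of the DN3 lists, with scores of 1874 and 1190 in DN3 and 81.3, 58.0, 57.1 and 70.2 in the CD73 lists. Cyth4, an exchange factor for Arf GTPases, had 1102 and 401.6 against 62.6, 148.6, 56.7 and 85.8. Klf13, a zinc finger factor, had 447.6 and 514.8 against 56.6, 60.2, 59.6 and 236.7 at 62242 bp. The CD73 peaks were not all weak within their lists, since the CD73- HEB peak near Cyth4 had a percentile of 91.7 and the CD73+ HEB peak near Klf13 one of 91.1. The 4 CD73 percentiles of the Btbd16 region were 85.7, 37.6, 26.4 and 59.8. In the other direction, the region in the cation channel gene Trpc4 scored 58.0 and 69.3 in DN3 and 129.2, 124.6, 239.8 and 187.0 in the CD73 lists. Between antibodies, Lmod3, a muscle gene, lay 6524 bp from a region with E2A scores of 422.6, 262.9 and 141.3 beside HEB scores of 52.0, 133.7 and 194.3. The percentiles there were 92.2, 97.9 and 97.4 for E2A and 9.8, 90.6 and 88.4 for HEB, so the contrast lay mainly in DN3 HEB. Ppm1h, a phosphatase gene, was 24646 bp from a region where E2A scored 1058, 55.3 and 57.5 while HEB scored 676.8, 361.6 and 655.9. The choice of these regions used their differences, which are descriptions of pooled lists.

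Regions likely to carry high background were marked in 2 ways, by a place over 100 kb from a gene (122 regions) and by a score of 3100 or more in a CD73 list (11 regions). Both marks were met by 6 regions, either by 127 (20.9%) and neither by 480 (79.1%). A score of 3100 in all 6 lists was found at 4 regions, all of them over 100 kb from a gene. They were chr14:19415281-19419885, chr17:39842814-39849284, chr2:98662050-98664272 and chr2:98666060-98667781. The chromosome 17 region overlaps Rn18s-rs5, an 18S ribosomal RNA related sequence, and the pair on chromosome 2 lies 1030378 and 1034388 bp from Lrrc4c, the nearest gene. Another region between that pair, at chr2:98664699-98665697, scored 2670, 2651, 1264, 1319, 2575 and 1711. The widest member, chr9:2999825-3038603, spans 38779 bp at the start of the assembled chromosome and scored 3100, 3100, 948.6, 2321, 3100 and 3100. Another near a chromosome start, chr12:3109628-3110299, scored 3100, 3100, 1568, 1735, 3100 and 2287. In all, 25 members lay in the first 5 Mb of their chromosome and 15 of these were over 100 kb from a gene.

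The 122 far regions were narrower and ranked differently from the 485 others. Their median width was 799 bp against 1261 bp, and 81 of them were under 1000 bp. Their median scores were 228.8, 251.2, 154.9, 191.0, 192.4 and 215.1, against 537.0, 413.8, 190.7, 239.9, 133.1 and 387.4 up to 100 kb. CD73+ E2A was the list of the highest percentile in 86 of the 122 (70.5%) and in 165 of the 485 (34.0%). The far regions were thus lower in 5 lists and higher in CD73+ E2A by their medians. Of the 122, 21 overlapped any RefSeq entry, among them noncoding genes and the 2 variable segment regions given above. Far position is therefore a mark and not proof of background, and its cause was not tested.

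Repeated genes gave a further set of members. On chromosome 4, 7 regions stood within 34.5 kb at chr4:88772824-88807277, in a cluster of 13 genes with the interferon genes Ifnz and Ifna7 among them. Their scores ranged over 109.5 to 224.3, 265.6 to 384.5, 171.4 to 347.3, 87.0 to 260.0, 54.7 to 100.7 and 122.4 to 314.8. The Gm13278 region was the lowest of them in DN3 E2A (109.5, next 172.1) and in CD73- HEB (87.0, next 142.6). In CD73+ HEB it was the highest, at 314.8. The Gm13290 region was the lowest in CD73+ E2A (54.7, next 67.7). The 250 bases printed above for Gm13276 and Gm13278 share 249 of 250 positions, those of Gm13287 and Gm13285 all 250, and those of Gm13289 and Gm13290 248. Identity over the rest of the regions was not measured, and how the authors treated reads that match several copies is not given in the sources used here. Whether the 7 regions are separate sites was not tested. All 12 genes with 3 or more six-list regions in the span or within 10 kb belong to this cluster.

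Other members lay in arrays of the same kind. On chromosome 8 a region of 18050 bp built from 39 peaks, at chr8:123599404-123617453, and one of 11925 bp from 31 peaks, at chr8:123550270-123562194, overlap entries for 5S ribosomal RNA copies. Their DN3 HEB scores were 480.6 and 1060, and their other scores were 52.0 to 112.1. On the X chromosome a region of 16088 bp near Zmat1 was built from 80 peaks. On chromosome Y 10 regions were members, 8 of them in a pair of clusters nearest Gm3376 and Gm52481. More than 12 peaks were joined in 24 members in all, where a single region does not stand for a single site.

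Six-list regions were mostly solitary. No other member was within 50 kb for 528 of the 607, and the median gap to the next member was 899442 bp. Clusters of 3 or more members with gaps of at most 50 kb numbered 9 and held 33 members. Besides those on chromosomes 2, 4 and Y given above, they lay nearest Gm40363 on chromosome 6 (88 peaks), Gm21119 on chromosome 8 (41 peaks), Mid1 on X (39 peaks), Cbfa2t3 (27 peaks) and Adgre5 (19 peaks). Cbfa2t3, which encodes the corepressor ETO2, a known partner of E proteins, had regions with DN3 E2A scores of 3100, 1463 and 1012 within 15.8 kb. Their CD73+ E2A scores were 195.4, 182.8 and 128.6, and their CD73+ HEB scores 2260, 776.7 and 229.5. At Adgre5, the adhesion receptor CD97, DN3 E2A scores were 2351, 948.3 and 297.0 within 18.1 kb. The third of these, at 83756249 to 83757547 on chromosome 8, was the one with the highest CD73+ E2A score, 490.0, against 160.3 and 86.7.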

How the data were processed

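E2A, HEB and input libraries of DN3, CD73- and CD73+ mouse cells, 9 in all, are described in the labels, and 6 peak lists were used. MACS 1.4.2, Bowtie, HOMER and build mm10 are named in the submitters' processing notes. Duplicates were joined before peak calling, per the labels. The deposited score is the authors' -10 log10 p-value of a peak against the input of its stage, used unchanged to describe and rank peaks within a list. Read depth is not given in the lists, and no sample column was left unmatched (0).

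Peaks on 21 chromosomes were merged at an overlap of 1 bp. Gene spans came from a RefSeq table of assembly GRCm38.p6 (21894 protein-coding or T cell receptor constant genes of 49997 entries), and starts from 21263 RefSeq promoter windows. All 292 listed symbols matched. Wilson intervals (95%) cover counting error only. The members, gene lists and named regions were chosen with earlier results of these data known. Named were the 12 highest regions by mean percentile within 100 kb of a gene, the 6 highest beyond, up to 5 genes per list, 5 regions for each contrast between stages or antibodies and direction, the 5 lowest, genes with 3 or more regions, and a set of regulators whatever their values. Not every region so named is printed. The ratio of CD73+ E2A to DN3 E2A scores and the clusters (gaps of at most 50 kb) were added after the values were seen. Alternatives were a score of at least 100, reciprocal overlap of 50%, a base common to all lists, no peaks over 3000 bp, equal list lengths, 5 lists, all sequences, far regions left out, and other distances. Merging and nearest-gene steps were tested on simulated peaks and against bedtools 2.31.1. The scripts ran in Python 3.11.15 with matplotlib 3.10.9, scipy 1.17.1, pandas 2.3.3 and numpy 2.4.6.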

Additional observations from a re-analysis of the deposited data

Results flagged for a closer look

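The files also hold peaks on unplaced or unlocalised sequences, which the report does not use. Of 256 merged regions there, 30 (11.7%, 95% Wilson interval 8.33% to 16.2%) held a peak of all 6 lists, against 1.04% on the main chromosomes. All 256 regions together were built from 684 peaks on 32 sequences. The 30 lay on 8 of these sequences and had a median width of 2294.5 bp. None of the 30 had a score of 3100 in any list (0 regions). Their median percentile was 71.8 in DN3 E2A and 98.3 in CD73+ E2A. No peak list of a control sample was used here, so no control level stands beside these values, and the cause was not tested.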

How the results depend on the processing

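Of 50 values under other settings, 33 stayed within the interval of the reported value or within 1.5 times a count, and 17 did not. Some of the 33 could not move. With all sequences, position shares and the gene count used only the 21 chromosomes. Without far regions, the gene count had to stay the same, as its flank was 10 kb. The number of six-list regions was 302 at a score of at least 100, 200 at reciprocal overlap of 50% and 957 with 5 lists, CD73+ E2A left out. Median width was 1236 bp with those 5 lists and 1261 bp without regions over 100 kb away. The share in a gene span was 47.0% at reciprocal overlap, 47.0% with 5 lists and 52.4% without far regions. The share within 1 kb of a gene end was 7.62% at a score of at least 100. The share over 100 kb away was 16.5% (12.0% to 22.3%) at reciprocal overlap and 15.8% (13.6% to 18.2%) with 5 lists. Both meet the interval of 5-list regions (10.7% to 16.1%), which was not recomputed at reciprocal overlap. The setting with 5 lists includes the 5-list regions that lack only CD73+ E2A. Neither setting can therefore decide whether six-list regions differ from 5-list regions. The share over 50 kb away was 25.9%. Genes with a region numbered 213 at a score of at least 100, 161 at reciprocal overlap, 682 with 5 lists, 968 with a flank of 50 kb and 255 with 0 kb. Stricter settings keep fewer peaks and the 5-list setting asks for fewer lists; the causes beyond this construction were not tested. No paired analysis was possible because each group has 1 pooled list. Depth is unknown, so a missing peak is not evidence that a factor was absent.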
